A study of Homo sapiens with 8 samples.

Results

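The proteasome subunit genes of U937 cells, a human monocytic cell line, were picked by Entrez gene number and symbol: protein-coding genes named PSMA, PSMB, PSMC, PSMD, PSME or PSMG with a number, together with POMP and ADRM1. The interferon-induced PSMB8 and PSMB9 were left out and are described as a comparison. The rule found 47 genes among 22653 entries listed in at least one library. Of these, 45 were listed in all 8 libraries, and the same 45 passed the filter on low counts, which kept 17503 entries. PSMA8, an alpha subunit of the testis, and PSMB11, a beta subunit of the thymus, were listed in no library. By role, the 45 were 7 alpha ring and 7 beta ring subunits of the 20S core, the inducible catalytic subunit PSMB10, 6 ATPases and 12 other subunits of the 19S cap, 4 activators and 8 assembly factors.

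All cells were U937 SLC19A1-/-, in which the gene of the reduced folate carrier is disrupted, and carried a Flag-tagged cationic amino acid transporter under a doxycycline (dox) switch. The 4 groups were SLC7A2-line cells with dox at 1 µg/mL for 24 h, SLC7A2-line cells without dox, SLC7A1-line cells with dox, and SLC7A1-line cells without dox. Each group had 2 libraries of poly(A) RNA, numbered 1 and 2 in the labels, which do not say that the numbers mark separate cultures. The p-values below therefore measure only the spread between these libraries, which may be technical. No line without a construct received dox, and the sources used here do not say whether a line is 1 clone.

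The 26S proteasome degrades ubiquitin-tagged proteins. Its barrel-shaped 20S core holds the proteolytic sites on 3 beta subunits inside rings of alpha and beta subunits. The 19S cap binds ubiquitin chains, removes them and unfolds the substrate with a ring of ATPases, while dedicated factors assemble both pieces. When proteasome activity is short, the transcription factor NFE2L1 is known to raise subunit genes together through antioxidant response elements, whereas heat shock factor HSF1 drives chaperones such as HSPA8 through heat shock elements.

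Library totals ran between 17309132 and 18441833 expected counts, and the 4 libraries numbered 2 (18336629 to 18441833) were all deeper than the 4 numbered 1 (17309132 to 17906852). Entries with an XLOC name, which carry no gene symbol, held 6.56% to 7.25% of the counts. In the SLC7A2 line the Flag-tagged SLC7A2 transcript had 91235 expected counts in the dox library numbered 2 and 4569 in the dox library numbered 1, against 177 and 10 without dox. In the SLC7A1 line the Flag-tagged SLC7A1 transcript had 6721 expected counts in the dox library numbered 2 and 14976 in that numbered 1, against 0 and 4.72 without dox. The induced level thus differed between numbers within each line, and most in the SLC7A2 line. SLC19A1 RNA was present in all 8 libraries (40.9 to 59.0 TPM), and without the position of the edit its level does not check the knockout. Of 11 monocytic markers 10 or 11 were listed per library, with CD14 at 0.19 TPM or less, and their summed level was 1871 and 2385 TPM in the SLC7A2-line libraries numbered 2 and 2644 to 3771 TPM in the other 6. The highest of these markers in every library were ELANE and PRTN3. In the same order, ELANE had 540.5 and 733.4 TPM against 1100 to 1738 TPM elsewhere. PRTN3 had 519.4 and 708.1 TPM against 710.9 to 1324 TPM. Fibroblast markers summed to 14.7 TPM in the SLC7A2-line library without dox numbered 2 and to at most 2.01 TPM elsewhere. In bulk RNA, fewer cells of a type and less RNA per cell cannot be told apart.

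Mean levels of the 45 genes spanned 8.58 to 754 TPM, and their order was much the same from library to library, though not identical. TPM (transcripts per 1000000) divides by transcript length and is used here to compare genes, as the mean of 8 libraries. In the alpha ring, PSMA7 was highest at 692 TPM and PSMA5 lowest at 55.6 TPM, 12.4-fold apart. In the beta ring, PSMB4 was highest at 754 TPM and PSMB2 lowest at 88.9 TPM, although the assembled core holds its subunits in equal number. The highest ATPase was PSMC5 at 186 TPM and the lowest PSMC6 at 32.3 TPM. Of the other cap subunits, PSMD8 (415 TPM) and PSMD12 (16.8 TPM) marked the ends. PSME1 led the activators at 261 TPM, with PSME4 last at 8.58 TPM, and PSMG1 led the assembly factors at 204 TPM, with PSMD5 last at 12.2 TPM. The order of the 45 levels correlated between any 2 libraries with a Spearman rho of 0.952 to 0.998, as a description. The highest and the lowest gene of each class did not overlap over the 8 libraries, whereas neighbours such as PSMB4 and PSMB3 did.

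**Figure D1:**
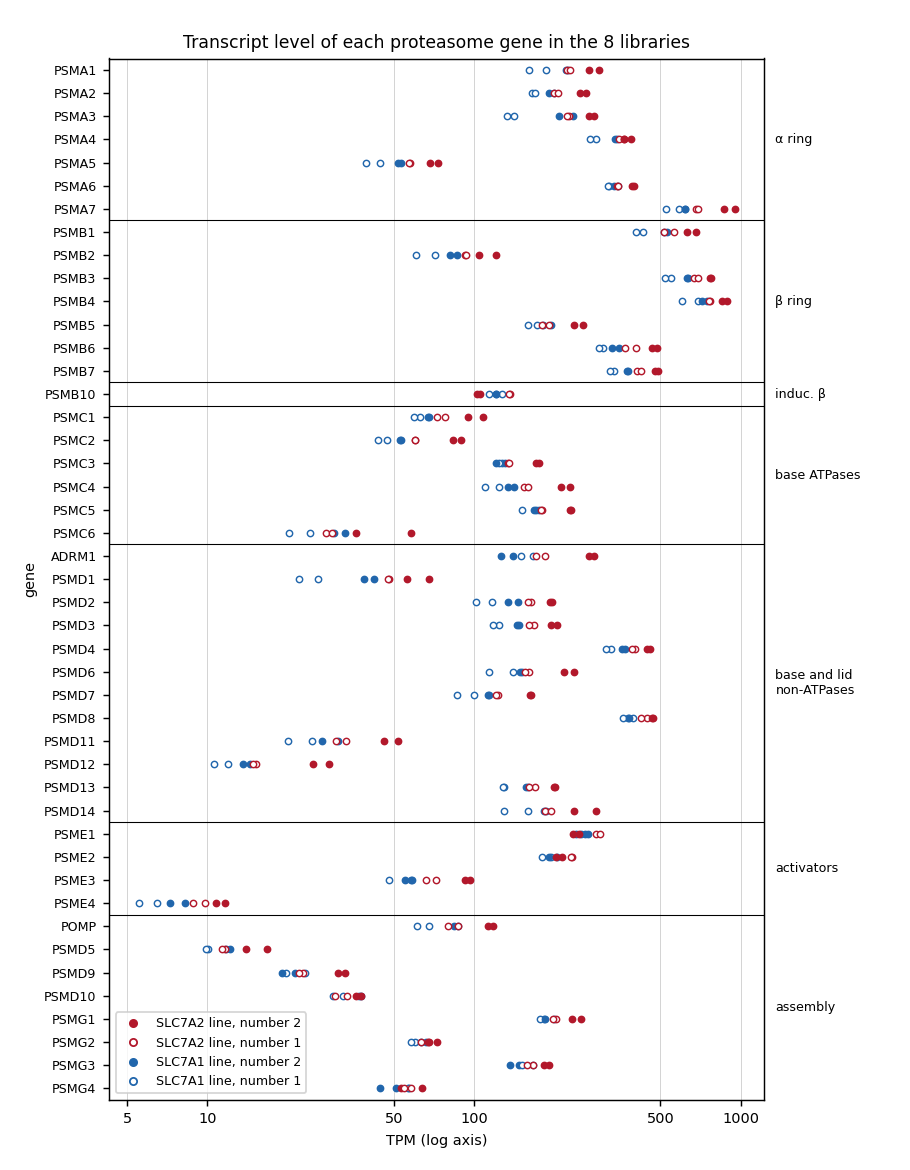
Level of each of the 45 measured proteasome genes in TPM on a log axis, grouped by role, with 1 point per library (8 per gene; colour for the line, filled for number 2). Genes of a class differed more than libraries did: the highest alpha subunit, PSMA7, averaged 692 TPM and the lowest, PSMA5, 55.6 TPM.

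Between libraries the genes moved little. In TMM-scaled counts per 1000000 (CPM, used below to compare one gene between libraries) the highest library exceeded the lowest by a median of 1.47-fold over the 45 genes, with a range of 1.12-fold to 2.41-fold, against 6.23-fold for HSPA8. Several class leaders were steady. PSMD8, a lid subunit, had 427 and 468 CPM in SLC7A2-line libraries numbered 2 with and without dox, 467 and 453 in those numbered 1, 427 and 402 in SLC7A1-line libraries numbered 2, and 424 and 422 in those numbered 1. PSMB4, a structural beta subunit, had 422 and 439 CPM in SLC7A2-line libraries numbered 2 with and without dox, 417 and 419 in those numbered 1, 438 and 390 in SLC7A1-line libraries numbered 2, and 387 and 365 in those numbered 1. PSMG1, which with PSMG2 guides assembly of the alpha ring, had 143 and 166 CPM in SLC7A2-line libraries numbered 2 with and without dox, 140 and 138 in those numbered 1, 137 and 128 in SLC7A1-line libraries numbered 2, and 140 and 135 in those numbered 1. The lines overlapped for PSMB4 and PSMG1 and were barely apart for PSMD8. With the lines pooled, the numbers overlapped for all 3. Within a line, number 2 still lay above number 1 for PSMB4 in each line and for PSMG1 in the SLC7A2 line only. PSMA7 was more graded, with 480 and 476 CPM in SLC7A2-line libraries numbered 2 with and without dox, 395 and 408 in those numbered 1, 386 and 359 in SLC7A1-line libraries numbered 2, and 350 and 341 in those numbered 1. All 4 of its SLC7A2-line values lay above all 4 of its SLC7A1-line values, and within each line number 2 lay above number 1, as for PSMB4. The ATPase PSMC5 reached 180 and 197 CPM in SLC7A2-line libraries numbered 2 with and without dox, against 160 and 163 in those numbered 1, 164 and 151 in SLC7A1-line libraries numbered 2, and 160 and 151 in those numbered 1. Only its SLC7A2-line libraries numbered 2 stood above the others.

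**Figure D2:**
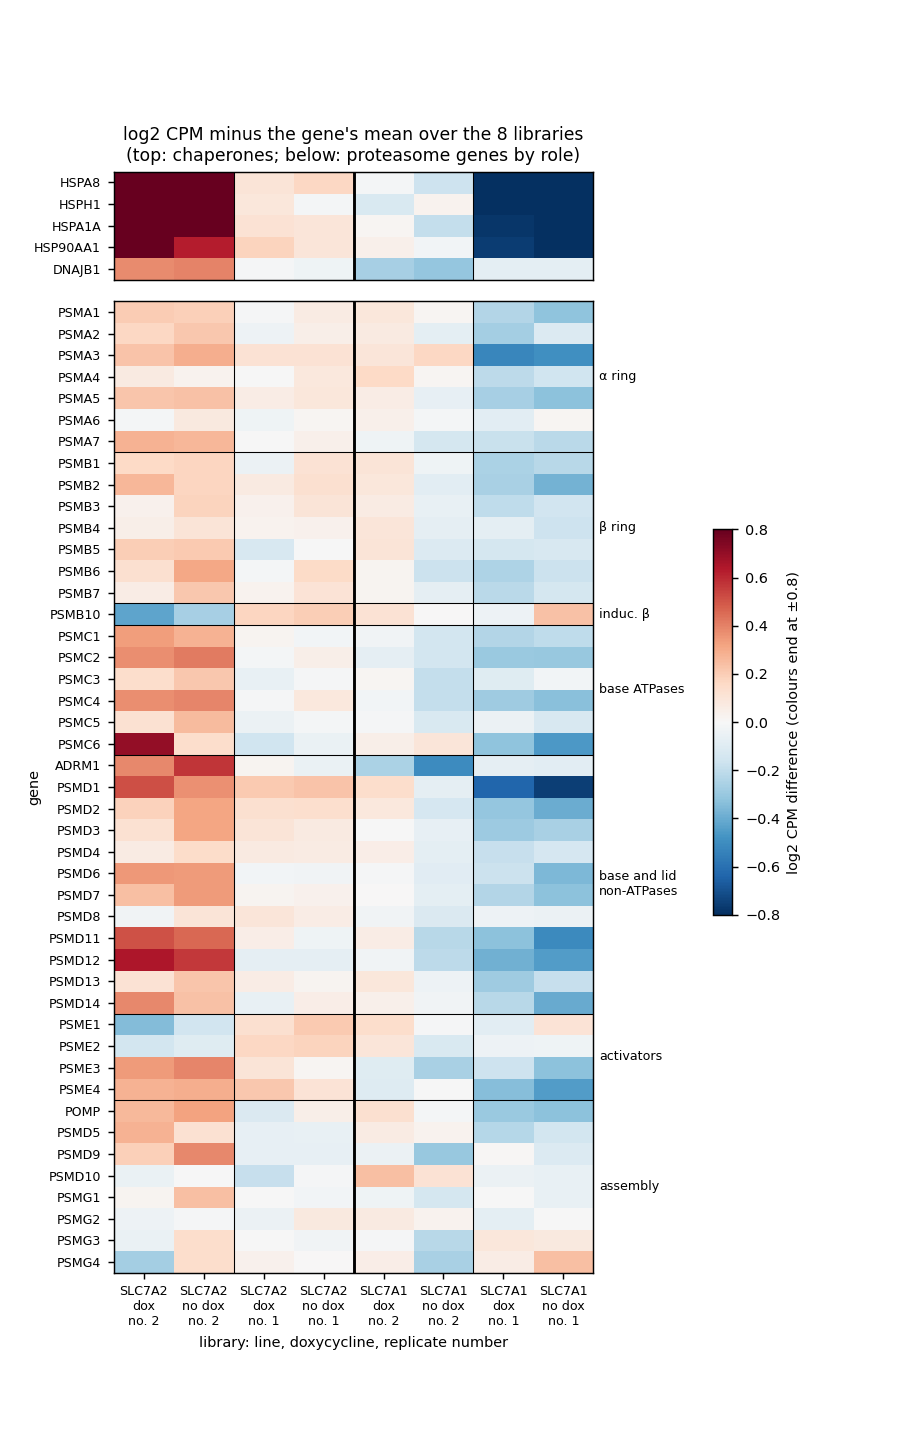
Log2 CPM of 5 chaperone genes (top) and of each measured proteasome gene by role (below) in the 8 libraries, as the difference from the gene's mean over the 8, with colours ending at ±0.8. The SLC7A2-line libraries numbered 2 were mostly above each gene's mean and the SLC7A1-line libraries numbered 1 mostly below it, while PSMB10, PSME1 and PSME2 were below their means in the SLC7A2-line libraries numbered 2.

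Promoters are shown for called genes of the cap and core, with and without a motif, for PSMB10 as the called gene that moved the other way, and for the chaperones HSPA8 and HSPH1. Each runs from 250 bases before to 50 bases after the start of the gene, 5′ to 3′ on the gene's strand, in RefSeq's GRCh38.p14. Capitals mark matches on either strand to TGACNNNGC (the core of an antioxidant response element), GAANNTTC (2 facing units of a heat shock element) or CCAAT (the box bound by NF-Y). The 3 patterns were searched separately, on both strands, and no printed match overlaps another; those of PSMC4 and PSMD1 lie after the start. They lie at chr17:67366528-67366827 (minus strand) for PSMD12, chr17:32444260-32444559 (plus) for PSMD11, chr19:39970915-39971214 (plus) for PSMC4, chr2:231056617-231056916 (plus) for PSMD1, chr14:58244593-58244892 (plus) for PSMA3, chr16:67936801-67937100 (minus) for PSMB10, chr11:123062087-123062386 (minus) for HSPA8 and chr13:31162339-31162638 (minus) for HSPH1. PSMD11, PSMB10 and HSPH1 hold none of the 3 patterns.
PSMD12: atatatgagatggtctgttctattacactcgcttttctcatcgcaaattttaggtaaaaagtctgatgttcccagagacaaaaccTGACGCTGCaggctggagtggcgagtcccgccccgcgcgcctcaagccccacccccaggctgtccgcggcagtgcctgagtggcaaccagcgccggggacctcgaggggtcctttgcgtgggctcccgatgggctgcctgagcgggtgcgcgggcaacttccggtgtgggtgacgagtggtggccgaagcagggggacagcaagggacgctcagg
PSMD11: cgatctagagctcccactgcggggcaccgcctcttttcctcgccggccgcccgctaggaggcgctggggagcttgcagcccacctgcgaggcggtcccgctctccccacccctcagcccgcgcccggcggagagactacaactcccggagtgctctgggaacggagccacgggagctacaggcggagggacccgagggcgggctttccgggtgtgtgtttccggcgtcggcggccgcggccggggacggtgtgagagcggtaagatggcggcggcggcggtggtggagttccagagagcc
PSMC4: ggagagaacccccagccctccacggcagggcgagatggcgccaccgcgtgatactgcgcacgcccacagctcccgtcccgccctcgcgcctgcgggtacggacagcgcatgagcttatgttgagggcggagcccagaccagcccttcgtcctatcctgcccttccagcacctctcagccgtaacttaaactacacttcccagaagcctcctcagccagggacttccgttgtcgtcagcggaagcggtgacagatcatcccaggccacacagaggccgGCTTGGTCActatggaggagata
PSMD1: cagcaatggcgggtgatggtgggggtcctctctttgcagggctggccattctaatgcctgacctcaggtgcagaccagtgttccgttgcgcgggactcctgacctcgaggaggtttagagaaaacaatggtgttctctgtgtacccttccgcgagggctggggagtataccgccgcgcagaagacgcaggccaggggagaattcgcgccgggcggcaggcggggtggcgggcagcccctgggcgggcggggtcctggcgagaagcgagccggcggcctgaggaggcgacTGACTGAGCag
PSMA3: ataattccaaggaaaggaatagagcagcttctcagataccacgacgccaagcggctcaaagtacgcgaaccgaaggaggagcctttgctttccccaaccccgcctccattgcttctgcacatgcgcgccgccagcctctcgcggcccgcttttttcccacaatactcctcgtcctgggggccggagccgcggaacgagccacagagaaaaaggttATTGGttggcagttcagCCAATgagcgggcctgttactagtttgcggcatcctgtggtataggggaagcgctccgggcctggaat
PSMB10: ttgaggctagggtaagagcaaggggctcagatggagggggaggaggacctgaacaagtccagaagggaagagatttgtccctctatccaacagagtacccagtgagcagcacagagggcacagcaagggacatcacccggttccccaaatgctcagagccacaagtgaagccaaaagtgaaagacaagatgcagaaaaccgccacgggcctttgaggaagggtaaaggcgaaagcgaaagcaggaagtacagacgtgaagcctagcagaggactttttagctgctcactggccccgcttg
HSPA8: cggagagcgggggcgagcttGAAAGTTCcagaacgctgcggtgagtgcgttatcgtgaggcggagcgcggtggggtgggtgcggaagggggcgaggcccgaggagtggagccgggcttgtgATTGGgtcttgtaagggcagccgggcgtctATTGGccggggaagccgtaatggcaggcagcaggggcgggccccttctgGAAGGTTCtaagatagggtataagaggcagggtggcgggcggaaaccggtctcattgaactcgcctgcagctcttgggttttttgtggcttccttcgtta
HSPH1: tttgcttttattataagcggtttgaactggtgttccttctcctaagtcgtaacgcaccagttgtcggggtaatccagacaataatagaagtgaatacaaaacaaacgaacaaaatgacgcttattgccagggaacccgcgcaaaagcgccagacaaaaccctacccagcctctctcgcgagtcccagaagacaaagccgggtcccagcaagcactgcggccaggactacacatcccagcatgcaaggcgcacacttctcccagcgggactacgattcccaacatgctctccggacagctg

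RefSeq's table held a promoter for 41 of the 47 genes. TGACNNNGC was present in 13 of the 41 (31.7%), against 15.3% of the 9564 tested entries with a promoter in the table and 13.6% of all 27305. By role it was in 4 of 11 non-ATPase cap subunits, 1 of 6 ATPases, 4 of 7 assembly factors, 3 of 4 activators, 1 of 4 beta subunits and 0 of 6 alpha subunits. Of the called cap genes, ADRM1, PSMC4, PSMD1 and PSMD12 hold it, and PSMC1, PSMC2, PSMD6 and PSMD11 do not. GAANNTTC was in 0 of the 41 members, 4.5% of tested entries, 6.87% of all promoters and 8 of 28 chaperones (28.6%). CCAAT was in 19 of the 41 (46.3%), against 36.6% of tested entries and 35.7% of all promoters. A match describes these letters in this window and is not evidence of a bound site.

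The first comparison asked whether induction of either transporter for 24 h changed proteasome genes, and no member passed in either line. In the SLC7A2 line the median log2 fold change with dox was -0.05, with 11 of 45 genes higher (51.3% of all entries) and 34 lower. In the SLC7A1 line it was 0.07, with 38 higher (49.2% of entries). Across both lines 28 were higher (51.7% of entries), and the difference between the lines was positive for 6 (51% of entries). The extremes were small and imprecise: PSMC6 (0.29 ± 0.31 SE) and PSMG4 (-0.18 ± 0.21) in the SLC7A2 line, PSMD11 (0.24 ± 0.24) and PSMB10 (-0.08 ± 0.24) in the SLC7A1 line. This fit had no term for the numbers, so the SE takes in the spread between them. By edgeR's quasi-likelihood test with Benjamini-Hochberg adjustment, 0 of 45 members were called in either line, across both lines or for the difference between the lines, and 0% of all 17503 entries were called in each. At an unadjusted p under 0.05 the same test gave 0 members in all 4, with 1.28% (SLC7A2 line), 1.27% (SLC7A1 line), 1.49% (both lines) and 1.27% (difference) of all entries. DESeq2 also called 0 members, against 0.0571% (SLC7A2 line), 0.0514% (SLC7A1 line), 0.00571% (both lines) and 0.114% (difference) of entries. Dox libraries lay wholly above those without dox for 0 members in the SLC7A2 line (10.2% of entries) and 5 in the SLC7A1 line (11.6%), and wholly below for 6 (9.7%) and 0 (11%). Across both lines no member was wholly above or below (0.491% and 0.4% of entries). With the numbers as a block within each line, edgeR and DESeq2 again called 0 members in all 4. Of all entries edgeR then called 0.00571% (SLC7A2 line), 0.0114% (SLC7A1 line), 0.0171% (both lines) and 0% (difference). The shares by DESeq2 were 0.149%, 0.257%, 0.606% and 0.12% in the same order.

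PSMC6, an ATPase of the base, had the highest value, and 1 library stood out. It had 81.5 and 44.7 CPM in SLC7A2-line dox libraries 2 and 1, against 55.2 and 48.2 without dox, and 51.6 and 40.0 CPM in SLC7A1-line dox libraries 2 and 1, against 53.4 and 36.4 without dox. The groups overlapped, and leaving out 1 library moved its SLC7A2-line change between -0.21 and 0.66. PSMG4, an alpha ring assembly factor, had 23.3 and 28.9 CPM in SLC7A2-line dox libraries 2 and 1, against 31.1 and 28.2 without dox, and 29.2 and 29.3 CPM in SLC7A1-line dox libraries 2 and 1, against 23.5 and 33.4 without dox. Its dox groups overlapped those without dox in both lines. The lines' dox effects differed most in the negative direction for PSMD9, a base assembly factor (SLC7A2 line minus SLC7A1 line, -0.29 ± 0.27 on the log2 scale). PSMD9 had 56.0 and 46.8 CPM in SLC7A2-line dox libraries 2 and 1, against 64.0 and 46.7 without dox, and 47.4 and 49.3 CPM in SLC7A1-line dox libraries 2 and 1, against 39.7 and 45.4 without dox. Its SLC7A1-line values did not overlap between dox states, while its SLC7A2-line values did. Leaving out a single library took the median of the 45 members between -0.14 and 0.05 in the SLC7A2 line and between -0.07 (without the SLC7A1-line dox library numbered 2) and 0.17 in the SLC7A1 line, though leaving out 1 library also breaks a same-numbered pair. Within same-numbered pairs, the median dox difference of members was -0.05 in number 2 and -0.02 in number 1 of the SLC7A2 line, and 0.13 in number 2 and 0.0098 in number 1 of the SLC7A1 line.

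The 3 constitutive catalytic subunits gave the same picture. PSMB5, the chymotrypsin-like subunit, had 146 and 117 CPM in SLC7A2-line dox libraries 2 and 1, against 147 and 127 without dox, and 137 and 115 CPM in SLC7A1-line dox libraries 2 and 1, against 118 and 116 without dox. PSMB6, the caspase-like subunit, had 188 and 171 CPM in SLC7A2-line dox libraries 2 and 1, against 214 and 192 without dox, and 175 and 145 CPM in SLC7A1-line dox libraries 2 and 1, against 153 and 153 without dox. PSMB7, the trypsin-like subunit, had 249 and 244 CPM in SLC7A2-line dox libraries 2 and 1, against 278 and 259 without dox, and 243 and 206 CPM in SLC7A1-line dox libraries 2 and 1, against 228 and 217 without dox. In the SLC7A2 line PSMB6 and PSMB7 lay lower in both dox libraries than in both libraries without dox, and in the SLC7A1 line the dox states overlapped for all 3 genes.

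The second comparison set the 4 SLC7A2-line libraries against the 4 SLC7A1-line libraries, and proteasome genes leaned one way, with 0 called by edgeR. Of 45 members 40 were higher in the SLC7A2 line, with a median log2 fold change of 0.22, whereas 49.5% of all entries were higher and their median was -0.00. All 32 core and cap subunits were higher (core median 0.20, cap median 0.32), as were 3 of 4 activators and 5 of 8 assembly factors (median 0.07). In a fit of line and dox without the numbers, the edgeR quasi-likelihood test with Benjamini-Hochberg adjustment called 0 members and 0% of all entries. Calls with the number as a block are given in the closing section. At an unadjusted p under 0.05 it gave 19 of 45 members, against 12.8% of entries. DESeq2 called 2 members, the activators PSME3 and PSME4, with 1.99% of all entries. For 14 members (31.1%) all SLC7A2-line libraries lay above all SLC7A1-line libraries, against 4.35% of all entries, and for 0 members all lay below, against 5.11%.

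PSMD1, the scaffold of the base, had the highest fold change of the members. It had 152 and 137 CPM in SLC7A2-line libraries numbered 2 with and without dox, 123 and 125 in those numbered 1, 117 and 101 in SLC7A1-line libraries numbered 2, and 68.3 and 63.1 in those numbered 1. The lines did not overlap, and the SLC7A1-line libraries numbered 1 were far below the rest. Its log2 fold change was 0.62 ± 0.20 (edgeR's quasi-likelihood test, Benjamini-Hochberg adjusted p = 0.329). Next came the lid subunits PSMD12 (0.57) and PSMD11 (0.51), the ubiquitin receptor ADRM1 (0.47), the nuclear activators PSME4 (0.44) and PSME3 (0.43), and the ATPases PSMC4 and PSMC2 (0.42 each). PSME3 had 208 and 215 CPM in SLC7A2-line libraries numbered 2 with and without dox, 176 and 166 in those numbered 1, 154 and 137 in SLC7A1-line libraries numbered 2, and 147 and 131 in those numbered 1. PSME4 had 59.9 and 60.3 CPM in SLC7A2-line libraries numbered 2 with and without dox, 57.2 and 53.2 in those numbered 1, 46.0 and 49.2 in SLC7A1-line libraries numbered 2, and 39.0 and 36.2 in those numbered 1. Both activator genes were thus higher in every SLC7A2-line library than in any SLC7A1-line library. The catalytic subunits were closer, at 0.14 for PSMB5, 0.29 for PSMB6 and 0.20 for PSMB7. The 5 members not higher were PSMB10 (-0.14 ± 0.16), PSMD10 (-0.13), PSME1 (-0.07), PSMG4 (-0.05) and PSMG2 (-0.01). Each line differs by its construct, its derivation and any handling at once, and these cannot be told apart. Without both SLC7A2-line libraries numbered 2, the members' median was 0.14 with 41 higher, and PSMB10 changed sign to 0.10.

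**Figure D3:**
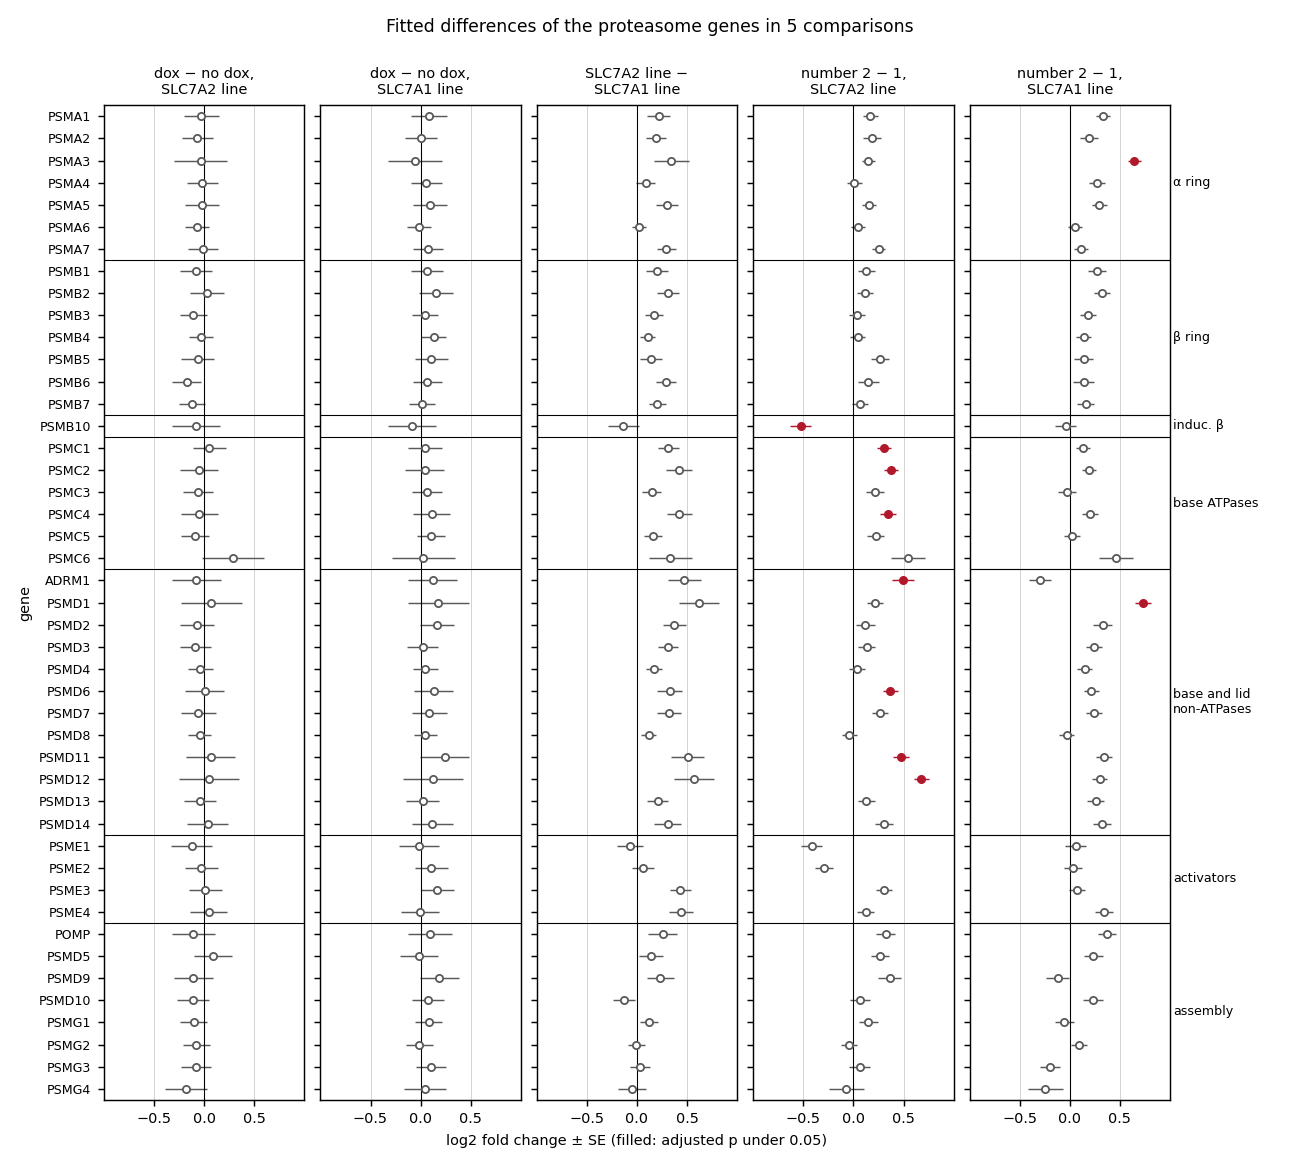
Log2 fold change of each measured proteasome gene in 5 comparisons: dox against no dox in each line, the SLC7A2 line against the SLC7A1 line, and replicate number 2 against 1 in each line, with bars of 1 SE from edgeR's quasi-likelihood fit. Filled points mark genes called at an adjusted p under 0.05: 0 for dox and for the line, 8 for the number in the SLC7A2 line and 2 for the number in the SLC7A1 line.

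The third comparison set libraries numbered 2 against those numbered 1 within a line, with dox as a term, since the numbers divided the libraries more than dox did. Each side was 1 pair with and without dox that lay close together. The SEs and p-values of this comparison therefore measure only the spread within such pairs. In the SLC7A2 line 39 of 45 members were higher in number 2 (50.6% of all entries), with a median log2 fold change of 0.15. The test called 8 of 45 (17.8%), against 10.9% of all entries. Of these, 7 rose, all in the 19S cap (4.14% of all entries rose): the ATPases PSMC1, PSMC2 and PSMC4, the lid subunits PSMD6, PSMD11 and PSMD12, and ADRM1. PSMB10 fell (6.8% of all entries fell). Of the 14 core subunits 0 were called by edgeR, though all 14 were higher (median 0.14) and 2 had an unadjusted p under 0.05 (30.5% of all entries) and were called by DESeq2 (21.1%). The cap had 17 of 18 higher (median 0.29). For 31 members both number 2 libraries lay above both number 1 libraries, against 30% of all entries, and for 3 both lay below, against 30.3%. DESeq2 called 20 members, against 21.1% of entries.

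The called lid subunits were PSMD12, PSMD11 and PSMD6. PSMD12 had 86.2 and 81.4 CPM in SLC7A2-line libraries numbered 2 with and without dox, against 52.3 and 52.4 in those numbered 1, and 53.9 and 47.5 CPM in SLC7A1-line libraries numbered 2, against 42.1 and 40.3 in those numbered 1. PSMD11 had 137 and 132 CPM in SLC7A2-line libraries numbered 2 with and without dox, against 99.9 and 94.1 in those numbered 1, and 100 and 82.6 CPM in SLC7A1-line libraries numbered 2, against 76.8 and 67.4 in those numbered 1. PSMD6 had 191 and 191 CPM in SLC7A2-line libraries numbered 2 with and without dox, against 148 and 148 in those numbered 1, and 149 and 142 CPM in SLC7A1-line libraries numbered 2, against 134 and 117 in those numbered 1. For all 3 the numbers did not overlap within either line. The SLC7A2-line log2 fold changes were 0.68 ± 0.08 for PSMD12 (edgeR's quasi-likelihood test, Benjamini-Hochberg adjusted p = 0.0133), 0.47 ± 0.08 for PSMD11 (0.0258) and 0.37 ± 0.08 for PSMD6 (0.0364).

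Of the ATPases, which form the unfolding ring, 6 of 6 were higher in number 2 of the SLC7A2 line. PSMC4 had 249 and 252 CPM in SLC7A2-line libraries numbered 2 with and without dox, against 191 and 204 in those numbered 1, and 189 and 169 CPM in SLC7A1-line libraries numbered 2, against 158 and 153 in those numbered 1. PSMC2 had 148 and 152 CPM in SLC7A2-line libraries numbered 2 with and without dox, against 113 and 118 in those numbered 1, and 109 and 103 CPM in SLC7A1-line libraries numbered 2, against 93.1 and 92.8 in those numbered 1. PSMC1 had 247 and 237 CPM in SLC7A2-line libraries numbered 2 with and without dox, against 199 and 193 in those numbered 1, and 192 and 177 CPM in SLC7A1-line libraries numbered 2, against 166 and 170 in those numbered 1. Again the numbers were apart in both lines for all 3 genes. The SLC7A2-line changes were 0.34 ± 0.08, 0.38 ± 0.07 and 0.31 ± 0.07 on the log2 scale, with Benjamini-Hochberg adjusted p of 0.0484, 0.0291 and 0.0419 by edgeR's quasi-likelihood test. PSMC1, PSMC2 and PSMD1 share genomic span with other listed genes (NRDE2; PMPCB and SLC26A5; HTR2B), and strand use in counting is not stated.

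ADRM1, which encodes a ubiquitin receptor of the cap, had number effects of opposite sign in the lines. It had 228 and 259 CPM in SLC7A2-line libraries numbered 2 with and without dox, against 177 and 169 in those numbered 1, and 147 and 123 CPM in SLC7A1-line libraries numbered 2, against 166 and 165 in those numbered 1. Number 2 was the higher one in the SLC7A2 line (0.50 ± 0.11, edgeR's quasi-likelihood test, Benjamini-Hochberg adjusted p = 0.0401) and the lower one in the SLC7A1 line (-0.30 ± 0.11, 0.191). PSMB10 had 53.3 and 59.6 CPM in SLC7A2-line libraries numbered 2 with and without dox, against 80.6 and 81.9 in those numbered 1, and 77.4 and 71.6 CPM in SLC7A1-line libraries numbered 2, against 69.6 and 84.2 in those numbered 1. It fell in the SLC7A2 line (-0.53 ± 0.11, adjusted p = 0.0351 by edgeR's quasi-likelihood test with Benjamini-Hochberg adjustment), and the numbers overlapped in the SLC7A1 line (-0.04 ± 0.11). The other ubiquitin receptor, PSMD4, had 352 and 372 CPM in SLC7A2-line libraries numbered 2 with and without dox, against 354 and 352 in those numbered 1, and 349 and 318 CPM in SLC7A1-line libraries numbered 2, against 296 and 306 in those numbered 1. Its numbers overlapped in the SLC7A2 line and were apart in the SLC7A1 line, where it was not called.

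In the SLC7A1 line 37 of 45 members were higher in number 2 (49.8% of all entries), with a median of 0.19. The test called 2 of 45 (4.44%), against 1.77% of all entries, with 0.611% of all entries rising and 1.16% falling. Both members rose. PSMD1, given above by library, rose by 0.73 ± 0.08 on the log2 scale (edgeR's quasi-likelihood test, Benjamini-Hochberg adjusted p = 0.0246). PSMA3, an alpha ring subunit, had 129 and 135 CPM in SLC7A1-line libraries numbered 2 with and without dox, against 83.5 and 85.5 in those numbered 1, and 141 and 147 CPM in SLC7A2-line libraries numbered 2, against 130 and 130 in those numbered 1. It rose by 0.64 ± 0.07 on the log2 scale in the SLC7A1 line (adjusted p = 0.0236 by the same test with Benjamini-Hochberg adjustment), with no overlap between numbers in either line. All 14 core subunits and 15 of 18 cap subunits were higher in number 2, against 4 of 8 assembly factors, of which PSMG4 (-0.25), PSMG3 (-0.20) and PSMD9 (-0.12) had the lowest values. For 31 members both number 2 libraries lay above both number 1 libraries, against 27.5% of entries, and for 3 both lay below, against 27.8%. DESeq2 called 18 members, against 12.1% of entries.

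These calls rested on few libraries. In the SLC7A2 line 0 members were called without the SLC7A2-line dox library numbered 1, the SLC7A2-line dox library numbered 2 or the SLC7A2-line library without dox numbered 1, 2 without the SLC7A2-line library without dox numbered 2, and 1 without either SLC7A1-line library numbered 1. In the SLC7A1 line the 2 calls were kept only where an SLC7A2-line library numbered 2 was left out, and 0 remained otherwise. What the numbers stand for is not given in the labels. Depth (above) and the Flag-tagged SLC7A2 transcript were higher in number 2. The Flag-tagged SLC7A1 transcript went the other way, with 6721 expected counts in the SLC7A1-line dox library numbered 2 and 14976 in that numbered 1. Lower in number 2 of the SLC7A2 line were the granule protease genes ELANE (-1.48, edgeR's quasi-likelihood test, Benjamini-Hochberg adjusted p = 0.0145) and PRTN3 (-1.25, 0.0208), with the receptor gene CSF3R (-0.85, 0.0126). Other monocytic markers did not all follow in that line. By CPM, CD33 and SPI1 were lower in both libraries numbered 2, ITGAM was higher in both, and LYZ, CEBPA, CD68 and MPO overlapped. The part of any of these changes in the result was not tested.

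The difference between the lines in the number effect was compared after the values above had been seen. It called 0 of 45 members by edgeR's quasi-likelihood test with Benjamini-Hochberg adjustment, against 2.86% of all entries. At an unadjusted p under 0.05 there were 8 members, against 22.1% of entries, and DESeq2 called 6 (ADRM1, PSMA3, PSMB10, PSMD1, PSMD12 and PSME1), against 11.5% of entries. The extremes, SLC7A2 line minus SLC7A1 line, were ADRM1 (0.79 ± 0.15, adjusted p = 0.0548 by edgeR's quasi-likelihood test) and PSMD1 (-0.51 ± 0.11, adjusted p = 0.0727 by the same test). The difference was positive for 20 members (48.7% of entries), among them all 6 ATPases and 3 of 14 core subunits.

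The fourth comparison asked whether proteasome genes moved with chaperones, which fold new and heat-damaged proteins. The chaperone list of 32 genes also took in the mitochondrial HSPD1 and HSPE1 and the heat shock factors HSF1 and HSF2. HSPA8, the constitutive Hsp70, had 2423 and 2843 CPM in SLC7A2-line libraries numbered 2 with and without dox, 1236 and 1287 in those numbered 1, 1137 and 1025 in SLC7A1-line libraries numbered 2, and 456 and 524 in those numbered 1. The lines did not overlap, the numbers did not overlap within a line, and the dox states did. Number 2 exceeded number 1 by 1.06 ± 0.10 on the log2 scale in the SLC7A2 line and 1.15 ± 0.10 in the SLC7A1 line (edgeR's quasi-likelihood test, Benjamini-Hochberg adjusted p = 0.0126 and 0.0187). For the line the value was 1.31 ± 0.39 (adjusted p = 0.321 by the same test), and for dox -0.18 ± 0.58 in the SLC7A2 line and 0.04 ± 0.58 in the SLC7A1 line. The dox fit had no term for the numbers, so these dox SEs take in the spread between them. With the numbers as a block, edgeR gave -0.02 ± 0.11 for dox in the SLC7A1 line.

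Within each line, 3 further chaperones were also higher in number 2. HSP90AA1, the inducible Hsp90, had 1275 and 1130 CPM in SLC7A2-line libraries numbered 2 with and without dox, 830 and 783 in those numbered 1, 752 and 720 in SLC7A1-line libraries numbered 2, and 433 and 377 in those numbered 1. HSPH1, an Hsp70 exchange factor, had 169 and 136 CPM in SLC7A2-line libraries numbered 2 with and without dox, 68.8 and 64.0 in those numbered 1, 59.3 and 65.9 in SLC7A1-line libraries numbered 2, and 30.8 and 25.1 in those numbered 1. HSPA1A, the inducible Hsp70, had 68.5 and 65.3 CPM in SLC7A2-line libraries numbered 2 with and without dox, 36.8 and 36.4 in those numbered 1, 34.4 and 29.9 in SLC7A1-line libraries numbered 2, and 19.8 and 14.8 in those numbered 1; its reads may be shared with its near-identical copy HSPA1B. All 3 rose in number 2 of each line, and the lines overlapped for HSPH1. DNAJB1, an Hsp40, differed: it had 102 and 104 CPM in SLC7A2-line libraries numbered 2 with and without dox, against 78.3 and 76.8 in those numbered 1, and 65.5 and 63.4 CPM in SLC7A1-line libraries numbered 2, against 74.5 and 74.6 in those numbered 1. It rose in the SLC7A2 line (0.41 ± 0.07) and was lower in both SLC7A1-line libraries numbered 2 (-0.21 ± 0.07, not called). Of the 32 listed chaperone genes 15 were called in the SLC7A2 line and 9 in the SLC7A1 line, all higher in number 2. Of all entries 4.14% and 0.611% were called higher. The chaperone medians were 0.36 and 0.38, against 0.15 and 0.19 for proteasome genes. In the line comparison 31 of 32 were higher in the SLC7A2 line (median 0.42; 49.5% of all entries were higher). EdgeR called 0 of them (0% of entries), 22 had an unadjusted p under 0.05 (12.8%) and DESeq2 called 5 (1.99%).

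**Figure D4:**
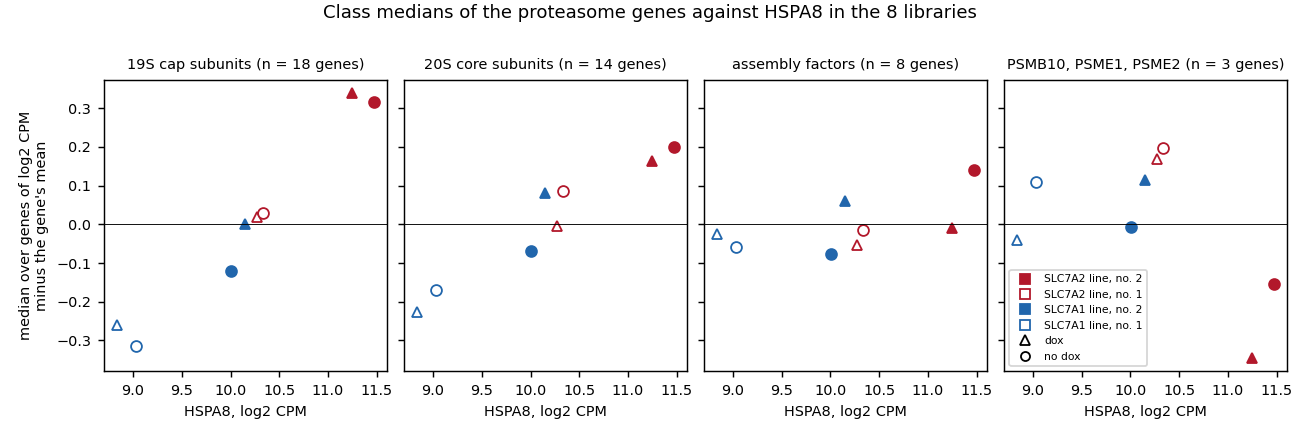
HSPA8 in log2 CPM on the x axis against the median, over the genes of a class, of log2 CPM minus each gene's mean over 8 libraries on the y axis, for the cap, the core, assembly factors and the trio PSMB10, PSME1 and PSME2. Each point is 1 library (colour for the line, filled for number 2, triangle for dox): cap medians ran between -0.31 and 0.34, and the trio was lowest in the SLC7A2-line libraries numbered 2.

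Across the 8 libraries, log2 CPM of core and cap genes tracked that of HSPA8. The 8 libraries were 4 pairs with and without dox that lay close together, so r describes these libraries rather than 8 independent samples. The median Pearson r with HSPA8 was 0.91 over the 45 members, against -0.02 over all 17503 entries. For 24 members r was at least 0.9, against 2.94% of entries, and for 40 it was above 0, against 49.3%. By role the median r was 0.94 for alpha and 0.90 for beta subunits, 0.88 for ATPases, 0.94 for the other cap subunits, 0.37 for activators and 0.38 for assembly factors. All 32 core and cap subunits had an r above 0, the lowest being PSMD8 at 0.49. By the two-sided exact permutation test over all pairings of 8 libraries, with Benjamini-Hochberg adjustment over 17503 entries, 9 of 45 were called positive (0.828% of entries) and 0 negative (0.44%): PSMA2, PSMA5, PSMC2, PSMC4, PSMD2, PSMD3, PSMD4, PSMD7 and PSMD13. That test exchanges the 8 libraries freely and takes no account of the 4 pairs, which allow too few pairings for an adjusted call, so these calls are a description as well. PSMD7, a scaffold of the lid, was highest, with r = 0.98 (p = 0.000546, adjusted p = 0.0485) and rho = 0.98 (p = 0.000397, adjusted p = 0.0486) by the same exact permutation test, and r = 0.99 without the 2 libraries farthest from the median of HSPA8. With any 1 library left out 0 members were called, where 7 libraries have fewer pairings and a higher smallest p, and the median r stayed between 0.87 and 0.92.

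Activators and assembly factors held most of the members with a low r. PSMB10 (r = -0.64), PSME1 (-0.45) and PSME2 (-0.15), which serve the immunoproteasome and its cap, and the assembly factors PSMG4 (-0.35) and PSMG3 (-0.07) were the 5 members below 0. POMP, which helps form the beta ring, was the assembly factor nearest to HSPA8 at 0.95. Within a line the median r was 0.85 in the SLC7A2 line and 0.89 in the SLC7A1 line, over 4 libraries each. ADRM1 had an r of 0.98 in the SLC7A2 line and -0.81 in the SLC7A1 line. After each dox pair was centred on its own mean, the median r was 0.50 with 34 of 45 above 0, against 0.91 with 40 above 0 before. With HSP90AA1 or HSPA1A in place of HSPA8 the median was 0.87. Chaperone genes had a median r of 0.96 with HSPA8 over the other 31, led by DNAJB6 at 0.99, with CDC37 lowest at -0.40. Between members, the median pairwise r was 0.86 within the core, 0.86 within the cap, 0.84 between core and cap and 0.22 among assembly factors, against -0.00 over pairs of all entries. All these r values share library depth and scaling between the genes compared.

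**Figure D5:**
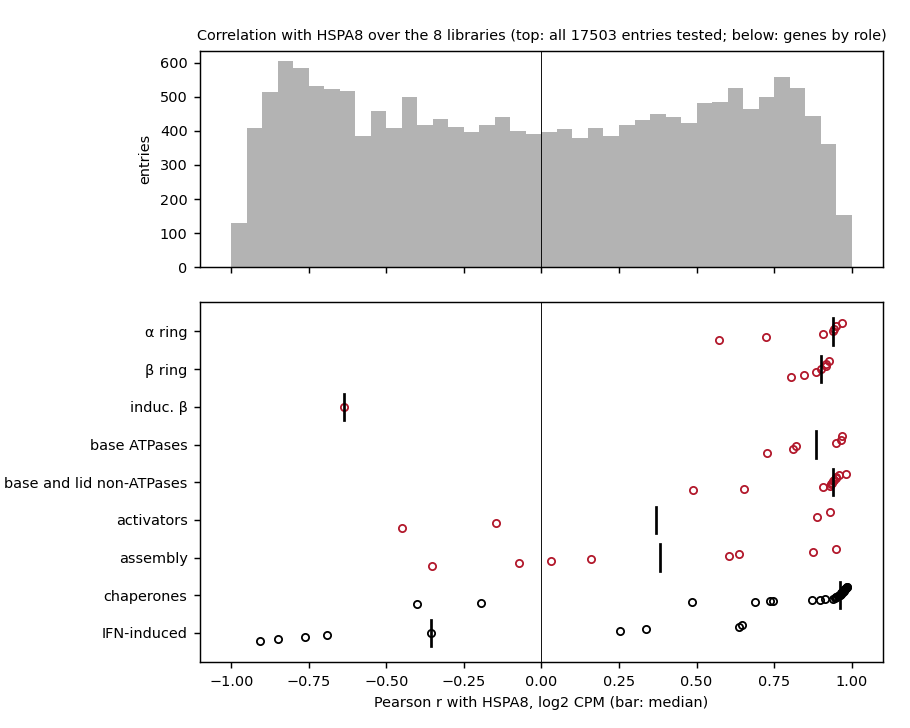
Pearson r with HSPA8 over 8 libraries (log2 CPM): its distribution over all 17503 tested entries (top) and each gene by role, with a bar at the class median, beside chaperones and interferon-induced genes (below). Core and cap subunits lay between 0.49 and 0.98, and PSMB10, PSME1, PSMG4, PSME2 and PSMG3 lay below 0.

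Interferon-inducible activators had values below 0 by number in the SLC7A2 line. PSME1, which with PSME2 forms an activator known to be induced by interferon, had 121 and 138 CPM in SLC7A2-line libraries numbered 2 with and without dox, against 168 and 177 in those numbered 1, and 169 and 153 CPM in SLC7A1-line libraries numbered 2, against 145 and 165 in those numbered 1. Its partner PSME2 had 82.8 and 86.0 CPM in SLC7A2-line libraries numbered 2 with and without dox, against 103 and 104 in those numbered 1, and 98.0 and 84.5 CPM in SLC7A1-line libraries numbered 2, against 89.3 and 89.5 in those numbered 1. Both were lower in each SLC7A2-line library numbered 2 than in those numbered 1 (-0.42 and -0.30 on the log2 scale, not called by edgeR), and overlapped in the SLC7A1 line. In the list of 9 interferon-induced antigen processing genes, edgeR called 2 lower in number 2 of the SLC7A2 line (6.8% of all entries). These were the immunoproteasome subunit PSMB9 (-0.59) and the peptide-loading factor TAPBP (-0.65). In the SLC7A1 line it called 1 lower in number 2 (1.16% of all entries), the transcription factor IRF1 (-0.99). PSMB8 had -0.30 in the SLC7A2 line and -0.03 in the SLC7A1 line, neither called. The list's median r with HSPA8 was -0.36, with PSMB9 at -0.91.

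Regulators of the proteasome were mixed. NFE2L1, the activator of subunit genes, had 158 and 146 CPM in SLC7A2-line libraries numbered 2 with and without dox, against 126 and 115 in those numbered 1, and 124 and 131 CPM in SLC7A1-line libraries numbered 2, against 141 and 128 in those numbered 1. Number 2 was higher in the SLC7A2 line (0.33, edgeR's quasi-likelihood test, Benjamini-Hochberg adjusted p = 0.0518, not called), with overlap in the SLC7A1 line (-0.07). Its mRNA level does not measure its processing or activity. Of 26 genes for regulation and ubiquitin supply, 19 were higher in number 2 of the SLC7A2 line (50.6% of all entries), with a median of 0.31. There edgeR's quasi-likelihood test called 4 higher (4.14% of all entries), namely NFE2L2, SQSTM1, USP14 and TXNL1. It called 2 lower (6.8%), namely NGLY1 and PAAF1, and DESeq2 called 15 (21.1%). In the SLC7A1 line edgeR's quasi-likelihood test called 0 of the 26, with 11 at an unadjusted p under 0.05 (22% of all entries) and 11 called by DESeq2 (12.1%). USP14, a deubiquitinase on the cap, had similar values in both lines (0.56 in the SLC7A2 line and 0.57 in the SLC7A1 line), the second not called. The list's median r with HSPA8 was 0.61, with TXNL1 highest at 0.98 and NFE2L1 at 0.38.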

How the data were processed

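Poly(A) RNA from U937 cells was sequenced as paired reads in 8 libraries, 2 for each of 4 groups. Per the file headers, the authors deposited for each library an expected count, a TPM and an FPKM value per gene, with gene lengths; an entry absent from a library was taken as 0. Per the submitters' processing notes the tools were HISAT, Bowtie2 2.3.4.3, RSEM 1.3.1 and DESeq2 1.4.5 with hg38, and no source used here states strand use. FPKM was not used. The proteasome genes, the gene lists and the comparisons were chosen with earlier results of these data known. A few genes of the regulation list are not reported here, for a reason unrelated to their values, so its counts and medians describe the genes kept.

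Expected counts were rounded, filtered with filterByExpr (minimum count 10, minimum total 15), scaled by TMM and fitted in edgeR 4.0.16 (R 4.3.3) with the quasi-likelihood test over all 17503 entries. Benjamini-Hochberg adjusted p under 0.05 was called. The SE is the log2 fold change divided by the square root of F. Dox within each line and the difference of dox effects were tested in a fit of 4 group means over 8 libraries. Line, and dox across both lines, were tested in an additive fit of line and dox. The number within each line was tested with dox as 1 term. The difference between number effects was added after the data were seen. Correlations with HSPA8 used log2 CPM (prior count 2) and an exact permutation test. Alternatives were DESeq2 1.42.0, limma 3.58.1 on log2(TPM + 1), other normalizations and filters (a strict one kept entries with at least 50 counts in every library), a replicate block and left-out libraries. Scripts were tested on simulated data.

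Dox and no dox libraries of the same number and line deviated together, so the numbers were taken to pair libraries within a line. The r of deviations from group means was 0.312 in the SLC7A2 line and 0.197 in the SLC7A1 line. For entries with mean log2 CPM of at least 5 it was 0.771 and 0.698. The main dox fits did not use these pairs, whereas the replicate block did. Values by library were given for the catalytic subunits, the highest gene of each role, the extremes of each comparison, called genes, NFE2L1, PSMD4 and 5 chaperones. PSMA2 and the other genes named for r, PSME2, PSME3 and PSME4, and the genes named from the lists were chosen after their values were seen. Of 22 genes with RefSeq pseudogenes (53 in all), 0 pseudogenes were listed. Depth was 17309132 to 18441833 expected counts per library, and 2 libraries a group limit the precision.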

Additional observations from a re-analysis of the deposited data

Results flagged for a closer look

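For 4 genes of the lists used here, the effect of replicate number (number 2 minus number 1) differed between the SLC7A2 line and the SLC7A1 line by edgeR's quasi-likelihood test with Benjamini-Hochberg adjustment, on the log2 scale as SLC7A2 line minus SLC7A1 line. DNAJB1, an Hsp40, had a difference of 0.62 (adjusted p = 0.0383). PAAF1, which binds proteasomal ATPases, had -0.72 (adjusted p = 0.0439). NGLY1, the glycanase that processes NFE2L1, had -0.90 (adjusted p = 0.0330). PRTN3, a granule protease, had -1.53 (adjusted p = 0.0469). No proteasome subunit gene met that test. With 2 libraries a group, a library far from its group could not be looked for.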

How the results depend on the processing

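No dox comparison called a member under any alternative that was run, replicate block included. Other normalizations kept the member counts within 1.5 times, except 1 call for the difference of number effects under upper quartile scaling. DESeq2 called 2 members for the line, 20 for the number in the SLC7A2 line, 18 in the SLC7A1 line and 6 for the difference; the strict filter gave 17, 7 and 3 for the last 3. Without XLOC entries and constructs there were 14 calls for the SLC7A2-line number and 3 for the difference. With a dox term per line, calls fell to 2 in the SLC7A2 line and 0 in the SLC7A1 line. Limma on log2(TPM + 1) gave 31 calls for the SLC7A2-line number and 2 for the difference, and moved the medians of members to 0.35 (line), 0.29 (SLC7A2-line number) and 0.10 (difference of numbers); the median of all entries moved to 0.0878, 0.0941 and 0.0694 there. The causes were not tested.

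Replicate numbers were not taken to pair libraries across lines, where r of deviations was 0.0113 with dox and 0.0684 without. For entries with mean log2 CPM of at least 5 it was 0.0833 and 0.204, against 0.771 within the SLC7A2 line and 0.698 within the SLC7A1 line. Still, 31 members in each line had both number 2 libraries above both number 1 libraries. Of all entries, 30% did in the SLC7A2 line and 27.5% in the SLC7A1 line. The replicate block gave 4 calls for the line by edgeR (PSMC2, PSMC4, PSMD1 and PSMD11), against 1.46% of entries. By DESeq2 it gave 24, against 8.46%. No paired analysis was possible for the number comparisons because the number is what they compare. HSPA8 with dox in the SLC7A1 line changed sign to -0.0127 under limma and, under the replicate block, to -0.0243 by edgeR and -0.0227 by DESeq2, and PSMB10 by number in the SLC7A1 line to 0.0054 under limma. Without both SLC7A2-line libraries numbered 2, signs changed for PSMB10 by line (0.10), for dox in the SLC7A2 line at PSMC6 (-0.11) and PSMG4 (0.0359), for dox across lines at PSMC6 (-0.0213) and HSPA8 (0.0045), and for the dox difference at PSMC6 (-0.14).

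The median r with HSPA8 was 0.86 by Spearman, 0.94 on log2(TPM + 1) with 33 called (all entries 0.33, with 2167 of 17503 called), 0.87 with HSP90AA1, 0.87 with HSPA1A with 21 called (1716 of all entries), 0.85 within the SLC7A2 line, 0.88 after group means and 0.50 after pair means (a replicate block). It was 0.86 without the 2 farthest libraries and 0.87 without both SLC7A2-line libraries numbered 2, with 0 called in both.

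Leaving out each library in turn gave 0 to 8 calls for the number in the SLC7A2 line, 0 to 2 in the SLC7A1 line and 0 for the correlation (median r 0.87 to 0.92). Medians of members ran from -0.0737 to 0.17 for dox in the SLC7A1 line, -0.24 to 0.0084 for the dox difference and -0.13 to 0.0367 for the difference of number effects. HSPA8 with dox ran from -0.74 to 0.51 in the SLC7A2 line, -0.76 to 0.60 in the SLC7A1 line, -0.40 to 0.22 across lines and -0.78 to 0.59 for the difference. PSMC6 with dox ran from -0.21 to 0.66 in the SLC7A2 line, -0.0687 to 0.30 across lines and -0.23 to 0.64 for the difference. PSMB10 with dox ran from -0.20 to 0.0367 in the SLC7A1 line and -0.21 to 0.0247 across lines. By number, PSMB10 ran from -0.17 to 0.0919 and PSMB6 from -0.0352 to 0.30 in the SLC7A1 line, and PSMB7 from -0.0004 to 0.13 in the SLC7A2 line. With 2 libraries a group, small differences between proteasome genes were not detectable.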
